A study of Homo sapiens with 4 samples.

Results

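The genes described here are 10 transcripts that read out and restrain the ERK branch of the MAPK pathway in MV3 melanoma spheroids: the phosphatase genes DUSP4, DUSP5 and DUSP6, the Sprouty-type inhibitor genes SPRY2, SPRY4, SPRED1 and SPRED2, and the ETS transcription factor genes ETV1, ETV4 and ETV5. They were taken by symbol from the table of gene counts, where 10 of the 10 were found among 56303 gene rows, and 10 of 10 were among the 15529 genes with enough counts to be tested.

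MV3 is an established human line of metastatic melanoma, and all 4 libraries came from MV3 cells that carry H2B-GFP, a fluorescent histone fusion that makes nuclei visible. Spheroids of 50000 cells were placed in collagen I and taken apart 2 days later, untreated, into the compact core (punch of 1 mm) and the surrounding zone of cells that had moved into the collagen (punch of 3 mm). Bulk RNAseq was performed on 2 libraries of each zone, numbered replicate 1 and replicate 2 in both. A core punch can include some invading cells, and H2B-GFP cells of a single line stand for all melanoma cells here. The methods state that a core and its corresponding invasion zone were taken from a spheroid. They do not say whether a replicate number marks a single spheroid, several pooled ones or a single day. The p-values thus rest on the spread between these samples, which may be technical, and on spread that the fits share across genes.

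In the MAPK pathway, growth factor receptors and RAS proteins switch on a chain of kinases (RAF, MEK and ERK), and ERK then phosphorylates many proteins in the cytoplasm and nucleus. Active ERK also raises the transcription of genes that hold it back, among them dual-specificity phosphatases that remove the activating phosphates from ERK and Sprouty and SPRED proteins that act on the pathway upstream of ERK. The PEA3 group of ETS factors (ETV1, ETV4 and ETV5) is another class of transcripts that follows ERK activity in many cells, and the pathway is active in most melanomas. Transcript levels are not a measure of ERK phosphorylation, which was not part of these data.

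Library totals lay between 11789243 and 37591782 counts, and both replicate 2 libraries were the shallower ones (14983135 in the core and 11789243 in the invasion zone). Of the 8 melanocytic and neural crest markers examined, SOX10 and TYR had no count in any library and MITF had between 1.71 and 3.36 CPM (CPM, normalized read counts, relative to the TMM-scaled library size). PMEL and MLANA, genes of pigment cells, did not exceed 1.01 CPM, whereas MCAM, an adhesion molecule of melanoma, had between 18.5 and 31.4 CPM. Of 4 markers of dedifferentiated melanoma, the receptor genes AXL and EGFR and the filament gene NES were expressed, while NGFR did not exceed 0.0662 CPM. Their sum was 854 and 976 CPM in the core and 1551 and 1514 CPM in the invasion zone, most of it from AXL (632 and 628, then 1222 and 1120). SOX10 and TYR were thus absent, PMEL and MLANA were at or under 1.01 CPM, and MITF was low but counted in every library. Among 12 markers of epithelial, endothelial, leukocyte and fibroblast cells, 10 stayed under 1 CPM in every library (highest value 0.426). The exceptions were PECAM1 (18.1 and 7.42 CPM in the core, 5.22 and 0.925 in the invasion zone) and PDGFRA (95.1 and 58.2, then 38.1 and 13.6). CDH5 and VWF, the other endothelial markers, and DCN and LUM, the other fibroblast markers, were under 1 CPM throughout, with DCN and LUM at 0. Epithelial markers summed to between 0.0662 and 0.195 CPM in the core and 0 and 0.133 in the invasion zone, and leukocyte markers to between 0.132 and 0.223 and between 0 and 0.107. The dedifferentiated sum was thus higher, and the endothelial and fibroblast sums lower, in both invasion zone libraries, and their part in the results was not tested.

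The question for these genes was whether they differed between the core and the invasion zone, and whether they did so together. They differed in direction and in size. DUSP5 was 2.40-fold higher in the invasion zone, DUSP4 and ETV1 were lower by 1.86-fold and 1.83-fold, DUSP6 and SPRED2 were lower by 1.44-fold each, and SPRY2 and ETV4 were nearly equal in both zones. These folds come from edgeR's quasi-likelihood test over 4 libraries without a replicate term, with TMM scaling of the library sizes, and log2 fold changes are given as invasion zone over core. Being bulk RNA, the samples cannot tell fewer cells with a transcript from less of it in each cell.

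A gene was called when its p-value, adjusted by the Benjamini-Hochberg method over 15529 genes, was under 0.05 and its change at least 2-fold. By this rule 0 of the 10 genes were called higher and 0 lower, where 0% of all genes tested were called in either direction. At an unadjusted p under 0.05, with no fold minimum, 1 of the 10 was higher (11.9% of all genes tested) and 3 were lower (12.4% of all genes). Limma voom called 0 and 0 of the 10, and DESeq2 called DUSP5 alone. By DESeq2, 2.28% of all genes were called higher and 3.53% lower. It was also the tool of the original analysis, whose stated rule was 2-fold and a p-value under 0.05, with no adjustment named. The DESeq2 fit here thus does not repeat that analysis. When the replicate number entered the edgeR test as a block, 1 of the 10 was called higher, DUSP5, and 0 were called lower, beside 3.41% and 7.06% of all genes. The block leaves 4 libraries little to estimate a gene's own spread, so blocked p-values rest largely on spread borrowed from other genes. With the block and no fold minimum, 1 was higher and 5 were lower at an adjusted p under 0.05 (DUSP4, DUSP6, SPRED1, SPRED2 and ETV1), where 19.4% of all genes tested passed in each direction. In 2 of the 10 genes the lower invasion zone library exceeded the higher core library (28.1% of all genes), in 5 the reverse held (30.3% of all genes), and in 3 the zones overlapped. Over the 10 genes, log2 fold changes had a median of -0.27, against -0.01 over all genes tested.

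**Figure D1:**
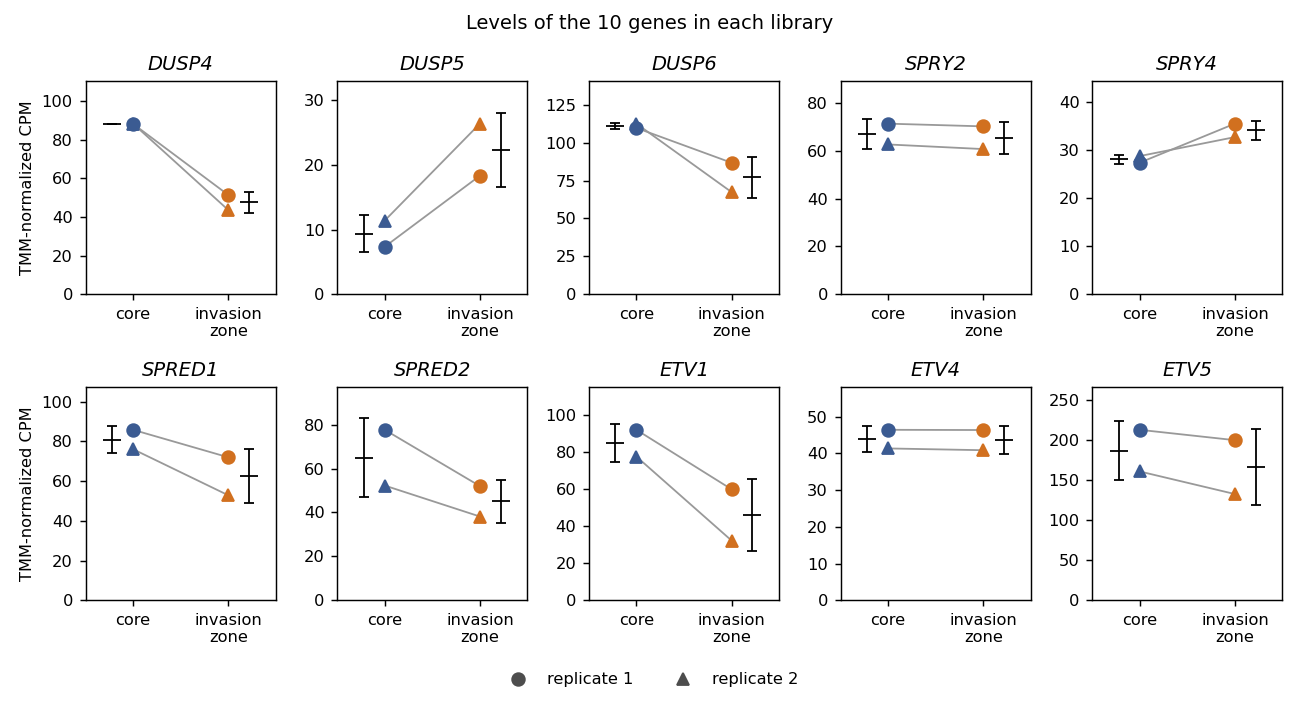
Level of each of the 10 genes (TMM-normalized CPM, axis from 0) in the core (blue) and the invasion zone (orange), with circles for replicate 1, triangles for replicate 2, grey lines joining the libraries of a replicate number and black bars for the mean and SD of the 2 libraries of a zone. DUSP5 is at 7.34 and 11.4 CPM (core) and at 18.3 and 26.4 CPM (invasion zone), DUSP4 and ETV1 slope down in both replicates, and the lines of SPRY2 and ETV4 are nearly flat.

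DUSP5 encodes a phosphatase that resides in the nucleus and binds ERK there. It lies at chr10:110497907-110511533 of GRCh38, on the plus strand (ENSG00000138166; positions here are from GENCODE release 44). It had 7.34 and 11.4 CPM in the core libraries (replicates 1 and 2) and 18.3 and 26.4 CPM in the invasion zone libraries, from 263, 172, 688 and 314 counts. The zones did not overlap, although replicate 2 was higher than replicate 1 in both. The core mean was 9.37 ± 2.87 CPM and the invasion zone mean 22.4 ± 5.70 CPM (SD, n = 2 each), which edgeR put at a log2 fold change of 1.26 (standard error 0.31). The adjusted p was 0.135 in edgeR without a replicate term, 0.000285 with the replicate block and 0.00772 in DESeq2, and it ran from 3.36e-06 to 0.227 over the 12 alternatives. The lowest adjusted p of DUSP5 came from DESeq2 with the replicate block, a fit added after the data were seen. So did the lowest ones of DUSP4, DUSP6 and ETV1 given below. Of the 15529 genes tested, 358 had a higher log2 fold change. DUSP5 was called without core replicate 2 (log2 fold change 1.61, adjusted p = 0.0120) or invasion zone replicate 1 (1.51, adjusted p = 0.00625), and was not called without core replicate 1 (0.98, adjusted p = 0.227) or invasion zone replicate 2 (0.98, adjusted p = 0.0711).

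DUSP4, whose product is an inducible nuclear phosphatase of ERK and other MAP kinases, went the other way (ENSG00000120875, chr8:29333064-29350684, minus strand). Its core libraries held 88.3 and 88.4 CPM and its invasion zone libraries 51.4 and 43.6 CPM. Both invasion zone libraries were below both core libraries, and the core libraries were nearly equal. Means of 88.3 ± 0.0746 CPM (core) and 47.5 ± 5.52 CPM (invasion zone, SD, n = 2 each) gave a log2 fold change of -0.89 (standard error 0.15). Its adjusted p was 0.128, or 0.000250 with the replicate block and 0.00126 in DESeq2 (range over the alternatives 1.43e-07 to 0.131), and its change was under 2-fold in each of these 3 fits. Without invasion zone replicate 1 it was called, at -1.02 (adjusted p = 0.0157).

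DUSP6 encodes the cytoplasmic phosphatase that is most selective for ERK, and it is widely read as a marker of ERK activity. It occupies chr12:89347235-89352501 on the minus strand (ENSG00000139318). It had 110 and 113 CPM in the core libraries and 86.8 and 67.4 CPM in the invasion zone libraries. The zones were separate, and the invasion zone libraries were further apart than the core libraries. The means were 111 ± 2.01 CPM for the core and 77.1 ± 13.7 CPM for the invasion zone (SD, n = 2 each), with a log2 fold change of -0.53 (standard error 0.17). The adjusted p was 0.161, and 0.00477 with the replicate block (0.00251 to 0.610 over the alternatives), and the change was under 2-fold in every fit. Of its 3859 exonic bases, 1105 lie opposite a long noncoding RNA (ENSG00000274021) that had between 15 and 19 counts per library, and the strand setting of the counting is not given in the sources used here, so reads of this stretch may have been dropped or assigned to either gene.

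The 3 phosphatase genes thus differed in direction, and their ratio within a library does not depend on how the libraries were scaled. For every count of DUSP6, DUSP5 had 6.69% and 10.1% as many in the core and 21.1% and 39.2% as many in the invasion zone. Against DUSP4, they were 8.31% and 12.9% in the core and 35.6% and 60.5% in the invasion zone. Both ratios were higher in each invasion zone library than in either core library, which is a description of 4 libraries and was not tested.

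SPRY2 and SPRY4 encode Sprouty proteins, which are induced by receptor tyrosine kinase signaling and dampen the activation of ERK. SPRY2 (ENSG00000136158, chr13:80335976-80341126, minus strand) had 71.5 and 62.8 CPM in the core and 70.4 and 60.9 CPM in the invasion zone. The replicates were further apart than the zones, which overlapped. The log2 fold change was -0.03 (standard error 0.16, adjusted p = 0.924, and 0.745 to 0.973 over the alternatives), and its sign turned without core replicate 1 (0.07) or invasion zone replicate 2 (0.07). Within a replicate the invasion zone differed from the core by -0.02 (exact 95% interval -0.10 to 0.06) and -0.05 (-0.19 to 0.10) on the log2 scale, where the intervals cover counting error only.

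SPRY4 (ENSG00000187678, chr5:142310427-142326455, minus strand) had 27.4 and 28.8 CPM in the core and 35.5 and 32.7 CPM in the invasion zone. Both invasion zone libraries were above both core libraries. Means of 28.1 ± 0.972 and 34.1 ± 1.98 CPM (SD, n = 2 each) gave a log2 fold change of 0.28 (standard error 0.15), with an adjusted p of 0.307 and of 0.0726 with the replicate block (0.0726 to 0.773 over the alternatives). In counts, SPRY4 was 38.3% and 45.8% of SPRY2 in the core and 50.4% and 53.7% of it in the invasion zone.

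SPRED1 and SPRED2 encode Sprouty-related proteins that bring neurofibromin to the membrane and so limit RAS activity. SPRED1 (ENSG00000166068, chr15:38252836-38357249, plus strand) had 85.8 and 76.0 CPM in the core and 72.0 and 52.9 CPM in the invasion zone. The zones did not overlap, and replicate 2 was the lower one in both. The log2 fold change was -0.37 (standard error 0.20), with an adjusted p of 0.304, or 0.0157 with the replicate block (0.0157 to 0.884 over the alternatives). It was -0.62 without invasion zone replicate 1 and -0.17 without invasion zone replicate 2.

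SPRED2 (ENSG00000198369, chr2:65310851-65432637, minus strand) had 77.7 and 52.3 CPM in the core and 52.0 and 38.2 CPM in the invasion zone. The 2 core libraries differed by more than did the means of the zones, and the lower core library was only just above the higher invasion zone library. The means were 65.0 ± 17.96 and 45.1 ± 9.80 CPM (SD, n = 2 each) and the log2 fold change was -0.52 (standard error 0.26). The adjusted p was 0.276, or 0.00295 with the replicate block (0.00295 to 0.837 over the alternatives), and the log2 fold change was -0.20 when core replicate 1 was left out and -0.32 when invasion zone replicate 2 was. SPRED1 counts were 110.5% and 145.5% of SPRED2 counts in the core and 138.4% and 138.5% of them in the invasion zone, so that this ratio overlapped between the zones.

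The 3 ETS genes encode transcription factors with closely related DNA-binding domains, and here their differences were unequal. ETV1 (ENSG00000006468, chr7:13891229-13991425, minus strand) had 92.1 and 77.6 CPM in the core and 60.0 and 32.3 CPM in the invasion zone. The zones were separate, and the invasion zone libraries were the more uneven pair. Means were 84.9 ± 10.2 and 46.1 ± 19.6 CPM (SD, n = 2 each), a log2 fold change of -0.87 (standard error 0.31). The adjusted p was 0.177, against 0.00128 with the replicate block and 0.0538 in DESeq2 (3.23e-06 to 0.380 over the alternatives). Without invasion zone replicate 1 it was called (-1.40, adjusted p = 0.00378), and without invasion zone replicate 2 the log2 fold change was -0.50.

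ETV4 (ENSG00000175832, chr17:43527844-43579620, minus strand) had 46.4 and 41.3 CPM in the core and 46.3 and 40.9 CPM in the invasion zone. The 2 libraries of a replicate number were almost equal. The log2 fold change was -0.01 (standard error 0.16, adjusted p = 0.981), with a range from -0.11 to 0.09 over the alternatives, and its sign turned under RLE scaling, in DESeq2 with and without the block, and without core replicate 1 or invasion zone replicate 2. The within-replicate differences were -0.00191 (exact 95% interval -0.10 to 0.10) and -0.02 (-0.19 to 0.16), with counting error only.

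ETV5 (ENSG00000244405, chr3:186046314-186110318, minus strand) was the member with the most counts, at 212 and 160 CPM in the core and 199 and 132 CPM in the invasion zone. The zones overlapped, because replicate 1 of the invasion zone exceeded replicate 2 of the core. The log2 fold change was -0.17 (standard error 0.25, adjusted p = 0.727, and 0.111 with the replicate block). It turned to 0.06 without core replicate 1 and to 0.10 without invasion zone replicate 2, and was -0.35 when core replicate 2 was left out and -0.50 when invasion zone replicate 1 was. ETV1 counts were 43.4% and 48.4% of ETV5 counts in the core and 30.1% and 24.4% of them in the invasion zone, whereas ETV4 counts were 21.9% and 25.8%, then 23.2% and 30.9%, with overlap between the zones. Overlaps with other genes were small here, at 68 of the 3515 exonic bases of ETV4 (DHX8, opposite strand) and 164 of the 5773 of ETV5 (DGKG, same strand).

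**Figure D2:**
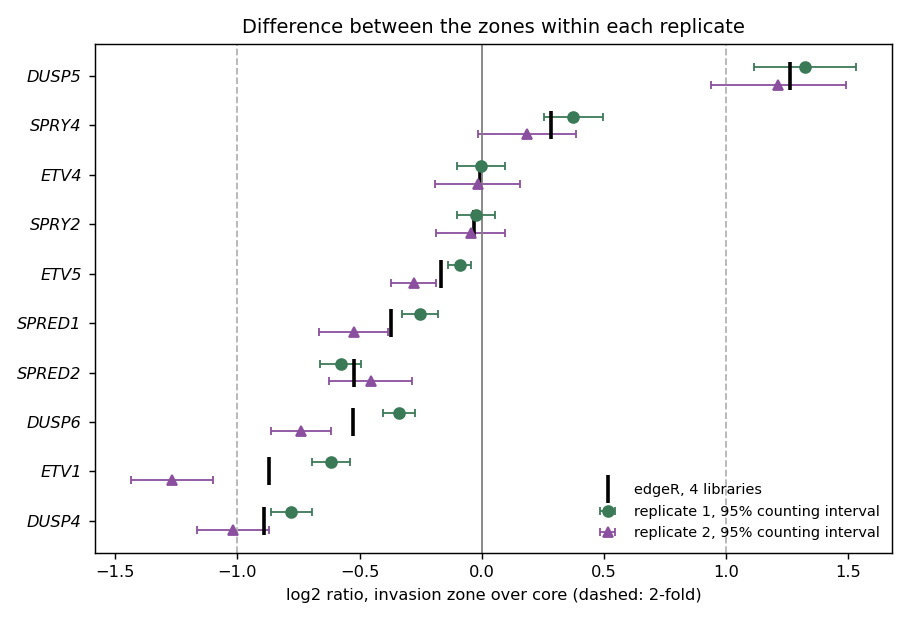
Difference between the zones within replicate 1 (circles) and replicate 2 (triangles) as the log2 ratio of invasion zone over core, with exact 95% intervals for counting error only, and the edgeR log2 fold change of all 4 libraries (black bars). Both replicates of DUSP5 lie beyond the dashed 2-fold line (1.32 and 1.21). DUSP4, DUSP6, SPRED1, SPRED2, ETV1 and ETV5 lie left of 0 in both, with intervals that leave out 0. SPRY2 and ETV4 lie just left of 0 in both, with intervals that hold it.

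Compared within each replicate, SPRY2 and ETV4 had intervals that held 0 in both replicates, and SPRY4 had one in replicate 2. The log2 ratio of DUSP5 was 1.32 (exact 95% interval 1.11 to 1.53) in replicate 1 and 1.21 (0.94 to 1.49) in replicate 2. For DUSP4 it was -0.78 (-0.86 to -0.70) and -1.02 (-1.17 to -0.87). For ETV1 it was -0.62 (-0.70 to -0.54) and -1.27 (-1.44 to -1.10), and for DUSP6 it was -0.34 (-0.41 to -0.27) and -0.74 (-0.86 to -0.62). That of ETV5, whose zones overlapped, was -0.09 (-0.14 to -0.04) and -0.28 (-0.37 to -0.19). The intervals of the replicates did not meet for DUSP4, DUSP6, SPRED1, ETV1 and ETV5. They treat each read as independent, and without molecular identifiers amplified copies of a molecule cannot be told apart. The intervals may thus be too narrow, and a gap between them does not show a difference beyond sampling. The intervals of SPRED2 did meet, at -0.58 (-0.66 to -0.49) and -0.45 (-0.62 to -0.29). With 1 library per zone in each replicate, a difference between the replicates could not be tested against biological spread.

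For a comparison of levels between genes, normalized CPM were divided by the exonic length in kilobases. In the core, ETV5 stood highest (32.3 ± 6.35 CPM per kb, SD, n = 2), followed by DUSP6 (28.8 ± 0.520) and SPRY2 (20.9 ± 1.92). ETV4 (12.5 ± 1.02), DUSP4 (12.1 ± 0.0103), SPRED2 (11.8 ± 3.26), SPRED1 (10.4 ± 0.891) and ETV1 (8.85 ± 1.07) formed a middle range in which the SD ranges of neighbours overlapped. SPRY4 (4.28 ± 0.148) and DUSP5 (3.70 ± 1.13) were the lowest in the core and did not differ from each other beyond the spread of DUSP5. In the invasion zone, the same measure gave 28.7 ± 8.22 for ETV5, 20.4 ± 2.10 for SPRY2, 20.0 ± 3.55 for DUSP6 and 12.4 ± 1.11 for ETV4. DUSP5 was next with 8.82 ± 2.25 CPM per kb, above SPRED2 (8.19 ± 1.78), SPRED1 (8.06 ± 1.74), DUSP4 (6.54 ± 0.759), SPRY4 (5.20 ± 0.302) and ETV1 (4.81 ± 2.04), although the replicate spread of each of these but SPRY4 overlapped that of DUSP5. These levels assume that the union of annotated exons stands for the transcripts made in MV3 cells.

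**Figure D3:**
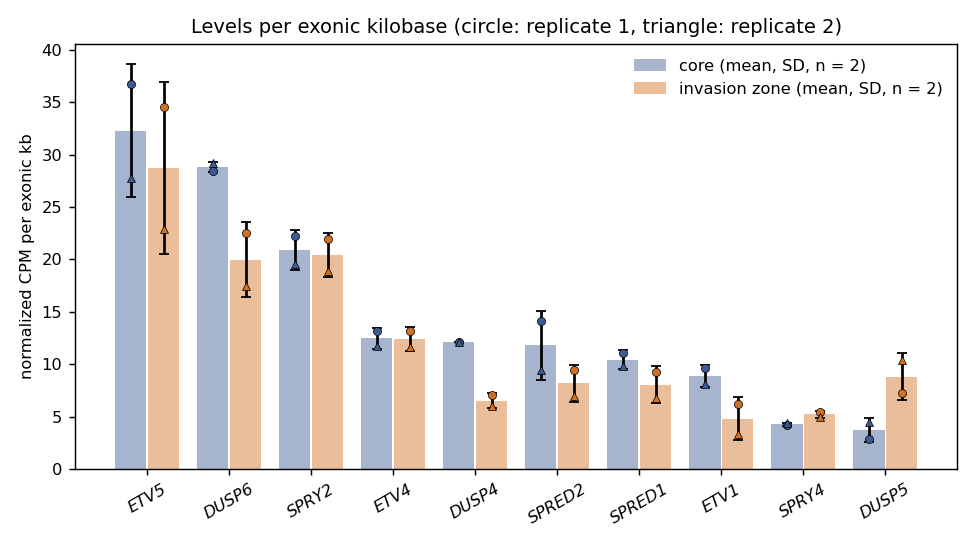
Normalized CPM per exonic kilobase of the 10 genes in order of their core level, with bars for the mean and SD of 2 libraries per zone, circles for replicate 1 and triangles for replicate 2. DUSP5 has the lowest bar of the core (3.70) and stands at 8.82 in the invasion zone, above DUSP4 (6.54).

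The promoters of DUSP6, SPRED1 and ETV1, whose means were lower in the invasion zone, and of SPRY2, whose means were close, are shown so that the region ahead of these starts can be compared. In the DUSP6 stretch 250 bases lie in annotated exons outside DUSP6, against 0 in the SPRED1, ETV1 and SPRY2 stretches. RefSeq promoter sequences (GRCh38.p14) were matched for 6 of the 10 genes (DUSP6, SPRY2, SPRY4, SPRED1, SPRED2 and ETV1) and not for DUSP4, DUSP5, ETV4 and ETV5. Each line gives the 250 bases before an annotated start on the gene's strand, 5′ to 3′: chr12:89352502-89352751 (minus strand) for DUSP6, chr15:38252586-38252835 (plus) for SPRED1, chr7:13991426-13991675 (minus) for ETV1 and chr13:80341127-80341376 (minus) for SPRY2. Capitals mark matches on either strand to AGGAAG, the core of PEA3-type ETS sites, or to TGAATGAA or TGAATGGA, the words bound by CIC, a repressor of ETV and DUSP genes that ERK signaling relieves.
DUSP6: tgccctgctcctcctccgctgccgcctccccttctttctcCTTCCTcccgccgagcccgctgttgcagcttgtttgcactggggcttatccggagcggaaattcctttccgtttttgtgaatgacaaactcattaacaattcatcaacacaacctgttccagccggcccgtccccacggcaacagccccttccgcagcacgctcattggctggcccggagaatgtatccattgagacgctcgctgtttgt
SPRED1: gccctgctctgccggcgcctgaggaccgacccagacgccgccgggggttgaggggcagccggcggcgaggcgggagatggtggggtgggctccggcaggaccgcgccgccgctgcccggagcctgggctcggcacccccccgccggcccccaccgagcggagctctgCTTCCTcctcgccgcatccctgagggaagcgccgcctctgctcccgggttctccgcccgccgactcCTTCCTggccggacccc
ETV1: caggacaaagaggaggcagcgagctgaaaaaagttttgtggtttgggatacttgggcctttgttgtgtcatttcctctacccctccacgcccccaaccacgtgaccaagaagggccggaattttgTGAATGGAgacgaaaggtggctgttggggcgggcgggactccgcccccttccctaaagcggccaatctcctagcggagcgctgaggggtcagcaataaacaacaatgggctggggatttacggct
SPRY2: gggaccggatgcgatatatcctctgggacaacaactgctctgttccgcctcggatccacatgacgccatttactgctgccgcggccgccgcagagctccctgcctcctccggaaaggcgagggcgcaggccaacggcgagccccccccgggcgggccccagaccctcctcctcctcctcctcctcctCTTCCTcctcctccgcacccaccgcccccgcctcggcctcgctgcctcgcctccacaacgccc

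In windows of 300 bases (250 before and 50 after a start), AGGAAG on either strand was found in 9 of the 14 promoters of these 6 genes and in 33.6% of all 35116 promoters. By gene, 5 of the 6 had a match in at least 1 of their promoters, all but SPRY4, but ETV1 alone has 6 annotated starts, so that the 14 windows overlap and are not independent. A CIC word occurred in 1 of the 14, the ETV1 window printed above (at position -125 from the start), against 2.63% of all promoters. The longer ETS word CCGGAAG was in 0 of the 14 (10.3% of all promoters), and the AP-1 word TGANTCA in 1 of the 14, a SPRED2 window (7.71% of all promoters). The words do not overlap each other in the printed sequences. DUSP6, SPRED1, ETV1 and SPRY2 each had at least 1 AGGAAG match when all windows of a gene were counted (that of ETV1 lies in windows of other starts). A match is a run of letters, and binding was not measured.

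The other genes of the pathway were grouped into 5 lists of 67 genes in all, of which 63 were tested. Without a replicate term 0 of the 63 were called in either direction, with 8 higher and 4 lower at an unadjusted p under 0.05 (11.9% and 12.4% of all genes tested), and limma voom called 0. DESeq2 called 1 higher and 1 lower, beside 2.28% and 3.53% of all genes tested. With the replicate block, edgeR called 2 higher (DUSP2 and FOSL1) and 2 lower (SPRY1 and IER3), beside 3.41% and 7.06% of all genes tested. With the block and no fold minimum 16 passed as higher and 14 as lower, where 19.4% of all genes tested passed in each direction. The median log2 fold change of the 63 was 0.02.

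Among 19 genes of the kinase cascade and its adaptors, 10 had a positive and 9 a negative log2 fold change (median 0.01), and none reached 2-fold. With the block and no fold minimum, 4 passed as higher and 3 as lower (19.4% of all genes in each direction). MAPK3, which encodes ERK1, had 27.9 and 19.2 CPM in the core, then 16.8 and 12.2 CPM in the invasion zone (log2 fold change -0.69, adjusted p = 0.202, and 0.00320 with the block). The ends of this list were HRAS, a RAS gene, at 56.1 and 66.8 CPM in the core against 95.1 and 101 CPM (0.68, adjusted p = 0.131, 0.000574 with the block and 0.0191 in DESeq2), and KSR1, which encodes a scaffold of RAF, MEK and ERK, at 5.50 and 6.36 CPM against 4.74 and 1.51 CPM (-0.85, adjusted p = 0.376).

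Of 8 other phosphatase genes tested, DUSP2, which encodes another nuclear phosphatase, was the highest. It had 1.40 and 1.59 CPM in the core and 2.96 and 5.72 CPM in the invasion zone (log2 fold change 1.52, adjusted p = 0.152, and 0.00852 with the block), from 24 to 111 counts per library. DUSP8 was the lowest of them, with 9 to 24 counts per library and a log2 fold change of -0.47 (adjusted p = 0.734). Of the 8, 3 passed as higher and 0 as lower with the block and no fold minimum, beside 19.4% of all genes in each direction.

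Of 10 other inhibitor genes, SPRY1, a further Sprouty gene, had the largest difference. It had 151 and 83.1 CPM in the core and 51.2 and 7.73 CPM in the invasion zone, which edgeR put at -1.96 on the log2 scale (standard error 0.82, adjusted p = 0.223) and of -2.27 with the replicate block (adjusted p = 0.000824). Both invasion zone libraries were below both core libraries, but replicate 2 was lower than replicate 1 in both zones, and by far more in the invasion zone. Within replicates 1 and 2 the log2 ratio of SPRY1 was -1.56 and -3.43. ERRFI1, which encodes an inhibitor of ERBB receptors, was at the other end, with 298 and 393 CPM against 331 and 560 CPM (0.37, adjusted p = 0.481, and 0.0215 with the block). The log2 fold changes of SPRY1, SPRY2 and SPRY4 were thus -1.96, -0.03 and 0.28.

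In the list of other ETS factor genes and CIC, 12 genes were tested, of which 5 were positive and 7 negative (median -0.17), and 0 reached 2-fold. ETS1, the highest of them, had 68.4 and 118 CPM in the core and 119 and 198 CPM in the invasion zone (0.76, adjusted p = 0.253, and 0.000187 with the block). ETV6, a repressor of the same family and the lowest of them, had 69.8 and 68.7 CPM against 59.2 and 43.0 CPM (-0.44, adjusted p = 0.237, and 0.0170 with the block). CIC itself had 67.7 and 54.6 CPM, then 56.5 and 33.8 CPM (-0.43, adjusted p = 0.389, and 0.0156 with the block). Its zones overlapped.

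Among 14 other genes known to follow ERK activity, 8 were positive and 6 negative (median 0.17). FOSL1, which encodes the AP-1 subunit FRA1, had 223 and 325 CPM in the core and 501 and 618 CPM in the invasion zone, which edgeR put at 1.03 on the log2 scale (standard error 0.23, adjusted p = 0.131, and 7.89e-05 with the block). IER3, an immediate early gene, had 98.8 and 58.6 CPM, then 40.6 and 21.3 CPM, a log2 fold change of -1.34 (standard error 0.39, adjusted p = 0.151, and 6.59e-05 with the block). With the block and no fold minimum 6 of the 14 passed as higher and 5 as lower, beside 19.4% of all genes in each direction.

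**Figure D4:**
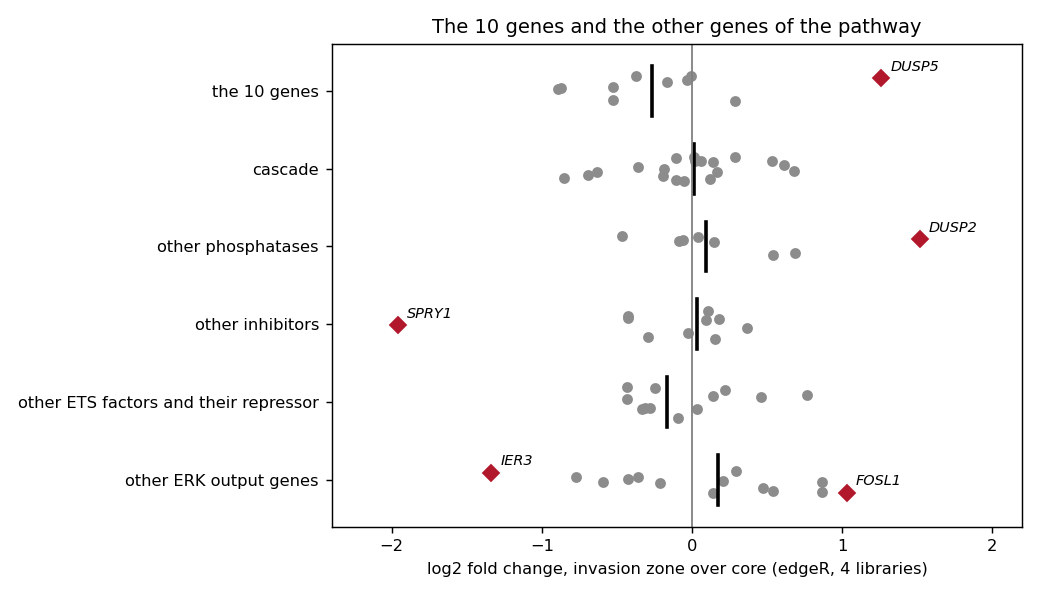
Log2 fold change (invasion zone over core, edgeR over 4 libraries) of the 10 genes and of the other genes of the pathway in 5 lists, 1 point per gene, with a black bar for each list's median and red diamonds for genes called at an adjusted p under 0.05 and at least 2-fold with the replicate block. DUSP5, DUSP2 and FOSL1 are the diamonds on the right and SPRY1 and IER3 those on the left.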

How the data were processed

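Bulk RNAseq was measured in 2 core and 2 invasion zone libraries of MV3 spheroids. The authors deposited raw counts per gene. Before that, they removed ribosomal RNA reads with Bowtie, filtered reads on quality, aligned them to hg38 with STAR and ran HTSeq-count on unique alignments. Their versions, annotation release and strandedness: not given in the sources used here. SMARTer amplification from little RNA has no molecular identifiers, so the counting intervals treat each read as independent and may be too narrow.

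Of 56306 rows, 3 that repeat 1 identifier and hold no counts were dropped. Genes were kept by filterByExpr (10 counts at the median library size in 2 libraries, 15 in total), leaving 15529. The zones were compared across all genes with edgeR 4.0.16 (TMM, glmQLFit and glmQLFTest) in R 4.3.3, with Benjamini-Hochberg adjustment, and calls needed an adjusted p under 0.05 and 2-fold. Standard errors are the log2 fold change over the root of F. DESeq2 1.42.0, limma 3.58.1 (voom), other scalings and filters, a replicate block and each library left out were alternatives, and DESeq2 with the block was added after the data were seen. The procedure was tested on simulated counts with and without a shift between replicate numbers. Recovery of the changed genes was required only without the shift, so the test does not show how many are found under one. Same-numbered libraries deviated together (correlation 0.58 across genes, over 2 pairs), which cannot tell a shared spheroid from a shared batch or depth. From the methods' wording on corresponding zones they were read as pairs, so blocked values stand beside results whose call they change. Named genes were the 10 members, the highest and lowest gene of each pathway list, MAPK3 and CIC, and a further gene of this rule is not reported here. Members and lists were chosen with earlier results of these data known. Exonic lengths and positions came from GENCODE release 44 (98.1% of identifiers matched). Figures were drawn with matplotlib 3.10.9.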

Additional observations from a re-analysis of the deposited data

How the results depend on the processing

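The count of 0 genes called changed with the replicate block, the tool, the low-count filter, the adjustment and the libraries used. Of all genes tested, the numbers called higher and lower were 454 and 909 at an unadjusted p with the 2-fold minimum, 427 and 846 without a low-count filter, 530 and 1097 with the replicate block, which pairs same-numbered libraries, 354 and 548 in DESeq2 and 427 and 731 in DESeq2 with the block. With each library left out they ran from 13 to 632 and from 125 to 1137. They stayed at 0 and 0 with RLE or upper-quartile scaling, 10 counts in every library, limma voom and no fold minimum. The causes were not tested. Of the 10 genes, 1 was called higher (DUSP5) at an unadjusted p, without a filter, with the replicate block, in DESeq2 and in DESeq2 with the block, and 0 lower. With each library left out, 0 to 1 were called higher and 0 to 2 lower, the latter being DUSP4 and ETV1 without invasion zone replicate 1. Of the pathway lists, the numbers higher and lower were 2 and 1 at an unadjusted p, 2 and 2 without a filter and with the block under both tools, and 1 and 1 in DESeq2. With each library left out, they ran from 0 to 4 and from 0 to 4.

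The log2 fold changes of DUSP4, DUSP5, DUSP6, SPRY4, SPRED1, SPRED2 and ETV1 kept their sign in all 12 alternatives. With each library left out, SPRY2 lay between -0.145 and 0.0747, ETV4 between -0.106 and 0.0885 and ETV5 between -0.497 and 0.0957. ETV4 was at 0.00199 with RLE scaling, 0.00215 in DESeq2 and 0.00154 in DESeq2 with the block. DUSP5 spanned 0.98 to 1.61. A zone left with a single library borrows the spread of the other zone. Depth limits the thinnest genes most, and the lowest count of a member was 172 (DUSP5, core replicate 2).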
